A study of Homo sapiens with 12 samples.

Results

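HCT116-EHF and HCT116-CDX1 are 2 stable lines of HCT116, a poorly differentiated human colorectal cancer cell line, that were each made to express a single epithelial transcription factor, and they are compared here directly with each other. The 3 RNA-seq libraries of HCT116-EHF and the 3 of HCT116-CDX1, chosen by the line named in their column labels, are 6 of the 12 libraries in the series. The other 6 are 3 of HCT116-EV, which carries an empty vector, and 3 of HCT116-EHF+CDX1, which carries both factors. They entered no test, and their levels are given beside the results. HCT116-EHF was made by transfection with the plasmid pcDNA3.1-EHF and isolation of clones that resist geneticin (G418), the same selection as for HCT116-EV. HCT116-CDX1 was made by transduction with the retrovirus MSCV-IRES-GFP-CDX1, after which GFP-positive cells were sorted and expanded, with no geneticin. HCT116-EHF+CDX1 was made from HCT116-CDX1 cells by transfection of the EHF plasmid and selection of geneticin-resistant clones. The factor, the vector, the selection and the history of the line therefore differ together between HCT116-EHF and HCT116-CDX1 and cannot be told apart. How many clones make up HCT116-EHF is not given in the sources used here. The labels do not say whether the 3 libraries of a line come from separate cultures, and the study describes fewer biological replicates than that for its RNA-seq, so the p-values measure only the spread between these libraries, which may be technical.

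EHF belongs to the epithelium-specific branch of the ETS family, whose members bind DNA at a GGAA core, and it is expressed in many lining epithelia, the colon among them. CDX1 is a caudal-type homeobox factor of the intestinal epithelium that, with its relative CDX2, sets intestinal identity in the embryo and drives genes of differentiated enterocytes in the adult. The series was made to compare cells with each factor alone and with both. The comparison here asks how far cells that have only EHF differ from cells that have only CDX1.

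The 6 libraries held 17528122 to 74186741 counts on genes, with the smallest and the largest both in HCT116-EHF and 46028589 to 57133355 counts in HCT116-CDX1. Levels are given as CPM, read counts scaled to a common library size, with edgeR's trimmed mean of M-values (TMM) factors. The fold change is always that of HCT116-EHF over HCT116-CDX1 on the log2 scale, so a negative value is higher in HCT116-CDX1, and a bare value ± error in parentheses after a gene is this log2 fold change ± SE. A gene was called where edgeR's quasi-likelihood test placed it beyond 1.5-fold in either direction, with p-values adjusted over all genes tested (Benjamini-Hochberg, 0.05). The adjusted p printed beside a fold change comes from the same edgeR model, tested there against a fold change of 1 and adjusted over all genes in the same way. Libraries of 1 line lay at a leading log2 fold change distance of 0.996 to 1.84 from each other, and libraries of different lines at 4.51 to 4.69. The HCT116-CDX1 libraries differed more among themselves (20.1 to 48.6 in chi-square per degree of freedom) than the HCT116-EHF libraries did (3.27 to 5.19), and no pair agreed within counting noise. General epithelial genes were present in both lines, whereas 19 of 30 colonocyte differentiation markers were below the filter on low counts. EPCAM, an epithelial adhesion molecule, averaged 298 CPM in HCT116-EHF against 458 CPM in HCT116-CDX1, E-cadherin (CDH1) 97.7 and 109 CPM, and the keratin KRT8 1777 and 947 CPM.

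The introduced factors separated the lines as labelled. EHF (chr11:34621093-34663288, GRCh38) had 18143, 18798 and 18517 CPM in the HCT116-EHF libraries against 11.1, 12.2 and 11.2 CPM in those of HCT116-CDX1, a 1609-fold difference (log2 fold change 10.65 ± 0.09 (SE), adjusted p = 1.04e-14). CDX1 (chr5:150166778-150184558) had 0, 0 and 0.0481 CPM in the HCT116-EHF libraries against 450.3, 524 and 498 CPM in those of HCT116-CDX1. No library of HCT116-EHF came near any library of HCT116-CDX1 for either gene. The CDX1 reads in HCT116-EHF were too few to fix a fold, and the fitted value of -14.06 rests on them. The other lines placed these levels: EHF averaged 290.4 CPM in HCT116-EV against 17964 CPM in HCT116-EHF+CDX1, and CDX1 averaged 0.00597 CPM in HCT116-EV against 5203 CPM in HCT116-EHF+CDX1. The counts do not separate introduced from endogenous transcripts.

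Of 15069 genes tested, 7216 (47.9%) were called, 3832 (25.4%) higher in HCT116-EHF and 3384 (22.5%) higher in HCT116-CDX1. The shares of 25.4% and 22.5% are the background for every count of list members below. A difference of at least 2-fold was seen for 3044 of the genes higher in HCT116-EHF and 2442 of those higher in HCT116-CDX1, and at least 16-fold for 116 and 83. Tested against no change rather than 1.5-fold, 6278 genes (41.7%) were higher in HCT116-EHF and 5908 (39.2%) in HCT116-CDX1. The median log2 fold change over all genes tested was 0.04. In 12484 genes (82.8%) the 3 libraries of one line did not overlap the 3 of the other, so the lines were apart at most genes and a lack of overlap does not mark out any gene. The split between directions depends on the scaling: 53.1% of the called genes were higher in HCT116-EHF with TMM factors and 71.8% with no scaling factors (5441 and 2139 genes), which moved the median of all genes by 0.34.

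Of the gene lists examined, the lowest median was that of heat shock genes, which encode the chaperones that hold and refold damaged proteins and are switched on by heat shock factor 1 at heat shock elements in their promoters. Of 28 genes listed, all were tested, and 27 were higher in HCT116-CDX1 (background 22.5%) and 0 higher in HCT116-EHF, with a median log2 fold change of -3.01. HSF1, the factor itself, was the member not called (-0.45 ± 0.07, SE). Summed over the list, the level was 12064 to 12315 CPM in HCT116-EHF against 64868 to 88123 CPM in HCT116-CDX1. HCT116-EV held 5678 to 12272 CPM and HCT116-EHF+CDX1 10871 to 11686 CPM, so that HCT116-CDX1 stood above the 3 other lines.

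HSPA6, a strictly inducible HSP70, had 0.761, 0.784 and 1.11 CPM in the HCT116-EHF libraries against 474, 266 and 319.6 CPM in those of HCT116-CDX1. It was 373-fold higher in HCT116-CDX1 (log2 fold change -8.54 ± 0.26 (SE), adjusted p = 1.69e-10). The inducible HSP70 genes HSPA1A and HSPA1B lie next to each other (chr6:31815543-31817942 and chr6:31827738-31830254) and are nearly identical, so reads may be divided unevenly between them. HSPA1B had 142, 143 and 137 CPM in the HCT116-EHF libraries against 13820.0, 9730.2 and 11283 CPM in those of HCT116-CDX1 (log2 fold change -6.37 ± 0.13 (SE), adjusted p = 1.34e-11). HSPA1A had 5.22, 7.18 and 8.77 CPM in the HCT116-EHF libraries against 1216, 1004 and 1055 CPM in those of HCT116-CDX1 (log2 fold change -7.20 ± 0.15 (SE), adjusted p = 1.37e-11). Both were higher in each HCT116-CDX1 library than in any HCT116-EHF library.

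DNAJB1, an HSP40 that hands clients to HSP70, had 214, 219 and 208 CPM in the HCT116-EHF libraries against 7724, 5701 and 7139 CPM in those of HCT116-CDX1 (log2 fold change -5.00 ± 0.11 (SE), adjusted p = 2.23e-11). CRYAB, a small heat shock protein, had 0.101, 0.221 and 0.324 CPM in the HCT116-EHF libraries against 46.2, 27.3 and 27.8 CPM in those of HCT116-CDX1 (log2 fold change -7.01 ± 0.31 (SE), adjusted p = 1.62e-09). Other cytosolic chaperones differed by smaller folds. HSPA8, the housekeeping HSP70, was 8.82-fold higher in HCT116-CDX1 and HSP90AA1, the inducible HSP90, 4.67-fold. In HCT116-CDX1, HSPA8 held 14712, 9949.6 and 13095 CPM and HSP90AA1 17052, 12336 and 14804 CPM, with 1409, 1468 and 1403 CPM and 3134, 3194 and 3140.5 CPM in HCT116-EHF.

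The promoters of 3 of these genes are shown because they carry the element through which the chaperone genes are known to respond together. Each line is the 250 bases before the RefSeq transcription start (GRCh38.p14), read 5′ to 3′ on the strand of the gene, with each match to GAANNTTC or TTCNNGAA, a heat shock element of 2 units, in capitals.
HSPA6 (chr1:161524290-161524539, + strand): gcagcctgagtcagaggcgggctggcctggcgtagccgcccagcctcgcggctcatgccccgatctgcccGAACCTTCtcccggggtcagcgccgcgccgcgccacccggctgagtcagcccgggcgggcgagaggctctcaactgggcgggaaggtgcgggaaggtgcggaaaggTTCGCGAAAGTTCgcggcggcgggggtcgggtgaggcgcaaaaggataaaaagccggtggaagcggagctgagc
DNAJB1 (chr19:14518398-14518647, - strand): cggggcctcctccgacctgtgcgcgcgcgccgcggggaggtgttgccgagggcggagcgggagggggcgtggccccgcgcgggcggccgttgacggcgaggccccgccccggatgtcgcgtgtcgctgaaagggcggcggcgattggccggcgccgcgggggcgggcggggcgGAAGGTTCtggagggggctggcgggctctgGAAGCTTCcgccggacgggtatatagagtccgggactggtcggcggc
HSPA1A (chr6:31815293-31815542, + strand): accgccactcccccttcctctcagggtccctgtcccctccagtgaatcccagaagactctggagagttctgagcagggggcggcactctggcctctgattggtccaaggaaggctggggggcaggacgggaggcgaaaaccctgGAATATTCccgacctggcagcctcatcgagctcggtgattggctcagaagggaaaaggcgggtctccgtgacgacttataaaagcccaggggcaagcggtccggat
HSPA6 holds 3 matches, of which a pair overlap, DNAJB1 2 matches at 39 to 77 bases before its start, and HSPA1A 1 match at 98 to 106 bases. For DNAJB1, which has several RefSeq starts, the window shown is the one with matches. On either strand, the 2-unit element was found in 17 of 26 heat shock genes with a promoter window (65.4%), against 11.8% of the 11574 tested genes with a window. The 3-unit element, in which a further GAA or TTC unit follows after 2 bases and which contains the 2-unit element, was found in 26.9% and 0.458%. A match in these letters is not evidence of binding, and the elements were searched for after the heat shock values had been seen.

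Genes of the ubiquitin system moved with the chaperones. Of 19 ubiquitin and autophagy receptor genes, a list drawn up after the values had been seen, 13 were higher in HCT116-CDX1 and 1 in HCT116-EHF (median -1.32). The polyubiquitin gene UBB (chr17:16380779-16382745) had 871, 909 and 883 CPM in the HCT116-EHF libraries against 6244, 4961 and 4940.1 CPM in those of HCT116-CDX1 (log2 fold change -2.60 ± 0.09 (SE), adjusted p = 3.34e-10). ZFAND2A, an arsenite-inducible zinc finger protein that binds the proteasome, had 6.59, 8.99 and 7.92 CPM in the HCT116-EHF libraries against 596, 491 and 487 CPM in those of HCT116-CDX1 (log2 fold change -6.03 ± 0.12 (SE), adjusted p = 1.08e-11). For both genes the lines did not overlap. Proteasome subunit genes, also listed after the values had been seen, did not share this: 1 of 32 was higher in HCT116-CDX1 (PSMC4, -0.80 ± 0.05) and 1 in HCT116-EHF (PSMC3, 0.89 ± 0.07), whereas with no scaling factors 10 were higher in HCT116-EHF and 0 in HCT116-CDX1, and with voom and quantile normalization 9 and 0.

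Immediate-early genes, which growth factors and stress induce within minutes through MAPK signalling, and the phosphatases that feed back on that signalling were also higher in HCT116-CDX1, with 28 of 36 called there, 1 in HCT116-EHF and a median of -1.76. DUSP1, a MAPK phosphatase, had 14.5, 15.8 and 14 CPM in the HCT116-EHF libraries against 518, 435 and 473 CPM in those of HCT116-CDX1 (log2 fold change -5.01 ± 0.09 (SE), adjusted p = 4.43e-12). EGR1, a zinc finger factor (chr5:138465479-138469303), had 129, 127 and 114 CPM in the HCT116-EHF libraries against 3144, 2482 and 2171 CPM in those of HCT116-CDX1 (log2 fold change -4.40 ± 0.13 (SE), adjusted p = 1.20e-10), and NR4A3, an orphan nuclear receptor, 1.47, 1.93 and 2.52 CPM in the HCT116-EHF libraries against 52, 34.2 and 39.2 CPM in those of HCT116-CDX1 (log2 fold change -4.30 ± 0.19 (SE), adjusted p = 1.82e-09). No library of HCT116-EHF reached the lowest HCT116-CDX1 library for these 3 genes. DUSP6, the ERK phosphatase, was the member called in the other direction (0.75 ± 0.06, SE). In HCT116-EV 1 library, which also stood apart in its mitochondrial share (19.8% of counts, against 8.56% and 8.77% in the others), held 544 CPM of EGR1 against 110.0 and 114 CPM.

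**Figure D1:**
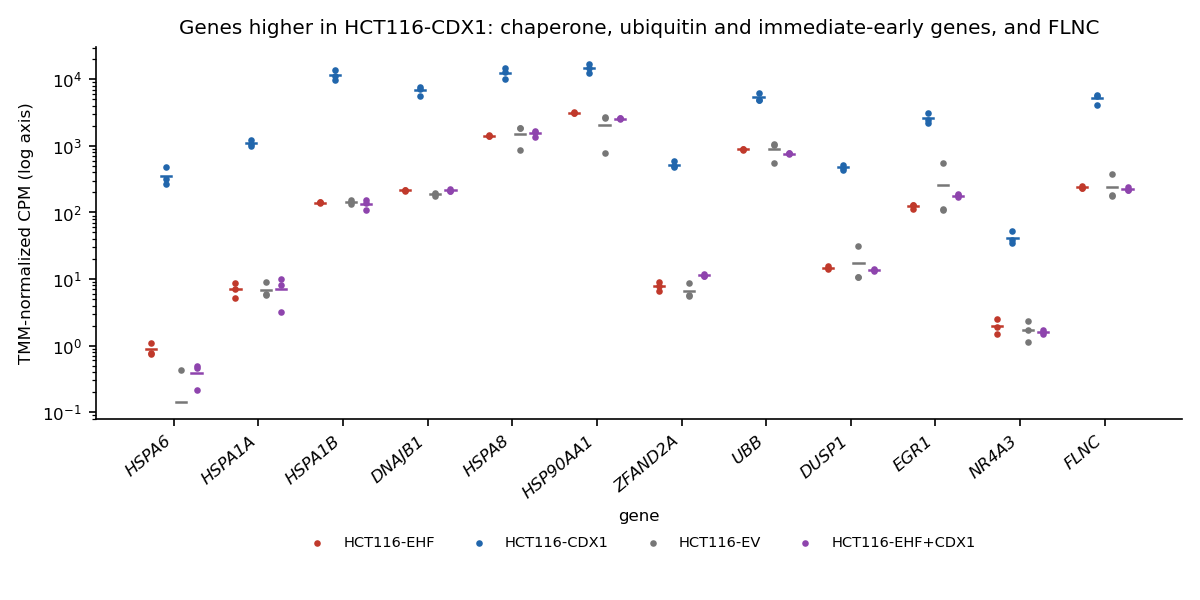
TMM-normalized CPM on a log axis (y) of 12 genes that were higher in HCT116-CDX1 (x), with 1 point per library, a bar at the mean of the 3 libraries and colours for the 4 lines; libraries at 0 are not drawn. The blue points of HCT116-CDX1 lie above those of the 3 other lines for every gene shown, from NR4A3 (52, 34.2 and 39.2 CPM) to HSP90AA1 (17052, 12336 and 14804 CPM).

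Genes of the ATF4, ER and NRF2 stress programmes leaned the same way with fewer members called, and metallothionein genes did not. Of 34 ATF4 and amino acid stress genes, 22 were higher in HCT116-CDX1 and 2 in HCT116-EHF (median -1.06), led by VLDLR, a lipoprotein receptor (-2.84 ± 0.46), DDIT3, which encodes the stress factor CHOP (-2.79 ± 0.07), and SESN2, a sestrin (-2.47 ± 0.06). Of 25 ER chaperone and unfolded protein genes, 13 were higher in HCT116-CDX1 and 1 in HCT116-EHF (median -0.68). HSPA5, the ER chaperone BiP, had 1455, 1418 and 1425 CPM in the HCT116-EHF libraries against 6645, 5420.3 and 6619.9 CPM in those of HCT116-CDX1 (log2 fold change -2.12 ± 0.08 (SE), adjusted p = 5.97e-10). With voom and quantile normalization the counts in HCT116-CDX1 were 14 of the ATF4 and 7 of the ER genes. Of 24 NRF2 target genes, 12 were higher in HCT116-CDX1 and 3 in HCT116-EHF (median -0.75). HMOX1, haem oxygenase 1, had 46.5, 50.3 and 52.7 CPM in the HCT116-EHF libraries against 549, 617 and 729 CPM in those of HCT116-CDX1 (log2 fold change -3.66 ± 0.10 (SE), adjusted p = 1.04e-10), and FTL, the ferritin light chain, was 7.28-fold higher in HCT116-CDX1, whereas NQO1, a quinone reductase, was higher in HCT116-EHF (0.77 ± 0.09). Of 6 metallothionein genes, MT1F was higher in HCT116-EHF (2.99 ± 0.25) and the metal sensor MTF1 in HCT116-CDX1 (-0.74 ± 0.08). The call for MTF1 was lost in 5 of 18 alternatives, among them no scaling factors, DESeq2, voom and leaving out EHF replicate 2.

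Splicing and RNA-processing genes held single large differences. CLK1, a kinase of splicing factors whose own introns are retained and released on stress, had 15.7, 13.6 and 15.7 CPM in the HCT116-EHF libraries against 331, 263 and 277 CPM in those of HCT116-CDX1 (log2 fold change -4.28 ± 0.10 (SE), adjusted p = 3.34e-11), and its relatives CLK4 (-2.81 ± 0.11) and CLK3 (-2.13 ± 0.07) were also higher in HCT116-CDX1. Of 17 CLK and SR splicing factor genes, listed after the values had been seen, 6 were higher in HCT116-CDX1 and 2 in HCT116-EHF (median -0.26). This turned to 3 and 4 with voom and quantile normalization (median 0.16) and was 4 and 4 with no scaling factors. Of 13 nuclear-retained and spliced host RNAs, 8 were higher in HCT116-CDX1 and 1 in HCT116-EHF (median -1.04). GAS5, a snoRNA host (-2.53 ± 0.06), ZFAS1 (-2.24 ± 0.05) and MALAT1 (-1.40 ± 0.21) were among them, and MALAT1 lost its call in 4 of 18 alternatives (-0.76 at the smallest). MALAT1 held 2065, 987 and 1122 CPM in HCT116-CDX1, so that 1 library lay well above the others of its line.

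DNA replication genes showed the opposite pattern. These encode the helicase, primase, polymerases and nucleotide enzymes of S phase and are known targets of E2F factors. Of 54 genes tested, 47 were higher in HCT116-EHF (background 25.4%) and 1 in HCT116-CDX1, with a median of 1.87. Summed, they held 4219.5 to 4404 CPM in HCT116-EHF against 1562 to 1647 CPM in HCT116-CDX1, with 2930.5 to 6334 CPM for HCT116-EV and 5308 to 5416 CPM in HCT116-EHF+CDX1. HCT116-CDX1 was thus the lowest of the 4 lines, below the HCT116-EV library that stood apart. In bulk RNA fewer cells in S phase and less of these RNAs per cell cannot be told apart.

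PRIM1, the catalytic primase subunit (chr12:56731580-56752323), had 24.1, 26.1 and 24.6 CPM in the HCT116-EHF libraries against 1.68, 1.52 and 2.4 CPM in those of HCT116-CDX1 (log2 fold change 3.75 ± 0.14 (SE), adjusted p = 6.63e-10). GINS2, a subunit of the replicative helicase, had 29.5, 36.2 and 33.9 CPM in the HCT116-EHF libraries against 3.34, 3.01 and 4.31 CPM in those of HCT116-CDX1 (log2 fold change 3.23 ± 0.13 (SE), adjusted p = 1.05e-09). Both genes were clear of overlap. E2F1 itself was higher in HCT116-EHF (3.13 ± 0.14), as were the helicase loader CDT1 (2.12 ± 0.07), the sliding clamp PCNA (2.01 ± 0.06) and thymidylate synthase, TYMS (2.46 ± 0.08). Cyclin E1 (CCNE1), which starts S phase with CDK2, was the exception, higher in HCT116-CDX1 (-1.10 ± 0.08). RPA2, ORC2, RFC1, GINS3, POLD2 and RPA1 were not called, at -0.02 to 0.60.

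The GINS2 promoter is shown as an example of the E2F element in this list, with the match to TTTCCCGC or TTTGGCGC in capitals, on the strand opposite to the gene.
GINS2 (chr16:85688955-85689204, - strand): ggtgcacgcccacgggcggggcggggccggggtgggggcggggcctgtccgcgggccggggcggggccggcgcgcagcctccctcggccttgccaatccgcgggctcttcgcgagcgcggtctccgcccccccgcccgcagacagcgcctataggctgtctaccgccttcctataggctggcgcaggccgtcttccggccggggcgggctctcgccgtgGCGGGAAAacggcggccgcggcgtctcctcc
The match lies 23 to 31 bases before the start. This element, searched for after the replication values had been seen, was found on either strand in 14 of 44 DNA replication genes with a window (31.8%) and in 3.82% of all tested genes with one. Among genes higher in HCT116-EHF it was found in 4.63% and among those higher in HCT116-CDX1 in 2.88%.

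Mitosis genes followed the replication genes, with 40 of 51 higher in HCT116-EHF, 1 higher in HCT116-CDX1 and a median of 1.18. The kinetochore genes CENPI, SPC24 and SPC25 led. CENPI had 11.7, 10.1 and 10.1 CPM in the HCT116-EHF libraries against 0.769, 0.687 and 1.21 CPM in those of HCT116-CDX1 (log2 fold change 3.58 ± 0.19 (SE), adjusted p = 6.97e-09), and SPC24 18.7, 20.7 and 18.7 CPM in the HCT116-EHF libraries against 1.42, 2.42 and 1.62 CPM in those of HCT116-CDX1 (log2 fold change 3.42 ± 0.16 (SE), adjusted p = 3.34e-09). PKMYT1, a kinase that holds CDK1 inactive until mitosis, had 73.3, 73.5 and 72.1 CPM in the HCT116-EHF libraries against 7.55, 9.53 and 8.72 CPM in those of HCT116-CDX1 (log2 fold change 3.09 ± 0.09 (SE), adjusted p = 1.10e-10). The lines did not overlap for these genes, as for 82.8% of all genes tested, and PKMYT1 was chosen among genes without overlap. ANLN, which encodes the cytokinesis protein anillin, was the member higher in HCT116-CDX1 (-0.99 ± 0.13). Summed, mitosis genes held 3942 to 4014 CPM in HCT116-EHF, 2048 to 2550.5 CPM in HCT116-CDX1 and 1670.5 to 4652 CPM in HCT116-EV.

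Replication-dependent histone genes did not follow the other S-phase genes. Their typical messages end in a stem-loop and lack a poly(A) tail, and the labels give the molecule sequenced as poly(A) RNA. Of 22 tested, 16 were higher in HCT116-CDX1 and 0 in HCT116-EHF (median -1.74). H1-2, a linker histone, had 9.89, 8.59 and 9.8 CPM in the HCT116-EHF libraries against 80.4, 111 and 70.8 CPM in those of HCT116-CDX1 (log2 fold change -3.22 ± 0.15 (SE), adjusted p = 3.02e-09), and H2BC21 2.23, 2.35 and 2.23 CPM in the HCT116-EHF libraries against 26.4, 19.8 and 18.1 CPM in those of HCT116-CDX1 (log2 fold change -3.24 ± 0.16 (SE), adjusted p = 3.85e-09). H2BC21 has 2223 bases of exon against 732 for H1-2, and whether its reads come from a message with a tail was not tested. H2AC18 (-3.13 ± 0.21) has a near-identical copy and is uncertain. Among other RNAs without a tail, 35 of 107 snoRNAs (background 22.5%) and 9 of 10 snRNAs were higher in HCT116-CDX1. Those higher in HCT116-EHF numbered 12 and 0 (medians -0.66 and -1.52). The telomerase RNA was higher in HCT116-EHF (log2 fold change 1.32). Of 13 tRNAs, 4 were higher in HCT116-EHF and 3 in HCT116-CDX1 (median 0.43), with nuclear and mitochondrial tRNAs counted together. The mitochondrial chromosome, which encodes tRNAs of its own, had 10 of 25 tested genes higher in HCT116-EHF and 2 in HCT116-CDX1. The 2 mitochondrial genes higher in HCT116-CDX1 were both rRNAs, so the 3 tRNAs higher there were nuclear. Nuclear tRNAs were not counted on their own. The mitochondrial rRNAs RNR2 (-1.91 ± 0.09) and RNR1 (-1.85 ± 0.07) were higher in HCT116-CDX1, while of the 15 mitochondrially encoded genes listed 6 were higher in HCT116-EHF, among them ATP8 (1.25 ± 0.09), and the total mitochondrial share of counts was 10.0 to 11.4% in HCT116-EHF and 7.01 to 8.46% in HCT116-CDX1. Genes with under 1 kb of exon had a median of -0.19, against 0.03 to 0.08 for longer genes. The part of these differences in RNA make-up in the histone result was not tested.

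Cytosolic ribosomal protein genes shifted by a small amount in HCT116-CDX1, with 47 of 78 called higher there and 0 in HCT116-EHF (median -0.79). RPL13, a large-subunit protein, had 862, 948 and 909.6 CPM in the HCT116-EHF libraries against 2106, 2382 and 2229.6 CPM in those of HCT116-CDX1 (log2 fold change -1.30 ± 0.06 (SE), adjusted p = 3.79e-09), and RPL9 47.2, 46.7 and 54.2 CPM in the HCT116-EHF libraries against 118, 147 and 116 CPM in those of HCT116-CDX1 (log2 fold change -1.36 ± 0.10 (SE), adjusted p = 7.69e-08). RPL17 (-1.53 ± 0.07) shares reads with a read-through gene and is uncertain. The number called depended on the scaling: it was 16 with no scaling factors and 10 with voom and quantile normalization, with medians of -0.45 and -0.37. With the latter, and with the deposited log2 RPKM, RPL13 itself was not called (-0.60 at the smallest).

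Stem cell and Wnt target genes, which TCF and beta-catenin drive in crypt cells and which HCT116 cells express through mutant beta-catenin, were higher in HCT116-EHF for 14 of 22 tested and in HCT116-CDX1 for 0 (median 1.08). NOTUM, a secreted Wnt inhibitor, had 33.3, 32.7 and 31.3 CPM in the HCT116-EHF libraries against 6.15, 6.56 and 5.91 CPM in those of HCT116-CDX1 (log2 fold change 2.38 ± 0.09 (SE), adjusted p = 4.34e-10), and CDCA7, a MYC-responsive gene, 49.9, 47.3 and 47.8 CPM in the HCT116-EHF libraries against 7.65, 6.8 and 7.8 CPM in those of HCT116-CDX1 (log2 fold change 2.70 ± 0.08 (SE), adjusted p = 1.59e-10). TNFRSF19 was 12.2-fold higher in HCT116-EHF from low levels (1.67, 1.37 and 1.03 CPM in the HCT116-EHF libraries against 0.182, 0.118 and 0 CPM in those of HCT116-CDX1). In each of these genes the lines did not overlap. The feedback genes NKD1 (2.32 ± 0.13) and RNF43 (2.23 ± 0.06) were also higher, and MYC was not called (-0.05 ± 0.07). The crypt stem cell marker LGR5 fell below the filter on low counts, with 0.254, 0.221 and 0.384 CPM in the HCT116-EHF libraries against 0.263, 0.261 and 0.242 CPM in those of HCT116-CDX1, as did OLFM4 and ASCL2, which were at 0.0268 and 0.004 CPM in HCT116-EHF against 0.0135 and 0.0079 CPM in HCT116-CDX1.

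Interferon-stimulated genes, antiviral genes switched on by STAT and IRF factors, were higher in HCT116-EHF for 23 of 46 tested and higher in HCT116-CDX1 for 7 (median 0.81). OAS3, which makes the 2'-5' oligoadenylate that activates RNase L, had 60.8, 61.9 and 62.3 CPM in the HCT116-EHF libraries against 6.34, 6.38 and 6.91 CPM in those of HCT116-CDX1 (log2 fold change 3.24 ± 0.07 (SE), adjusted p = 3.06e-11). IFIT1, which binds foreign RNA caps, had 10.6, 10.3 and 10.1 CPM in the HCT116-EHF libraries against 0.931, 0.972 and 1.38 CPM in those of HCT116-CDX1 (log2 fold change 3.24 ± 0.16 (SE), adjusted p = 4.49e-09), and CMPK2, a mitochondrial nucleotide kinase, 1.93, 2.43 and 2.61 CPM in the HCT116-EHF libraries against 0.121, 0.118 and 0.0242 CPM in those of HCT116-CDX1 (log2 fold change 4.68 ± 0.37 (SE), adjusted p = 2.11e-07). The lines were apart in all libraries for these genes. Those higher in HCT116-CDX1 included the guanylate-binding protein GBP2 (-2.22 ± 0.37) and the exonuclease ISG20 (-1.66 ± 0.15). HCT116-EHF+CDX1 held more than either, with 226 CPM of OAS3 and 92.3 CPM of IFIT1 on average.

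The OAS3 and IFIT1 promoters are shown because both hold the element bound by IRF and STAT complexes. The interferon-stimulated response element searched for was a pair of GAAA blocks with 2 bases between them, on either strand, in capitals.
OAS3 (chr12:112938224-112938473, + strand): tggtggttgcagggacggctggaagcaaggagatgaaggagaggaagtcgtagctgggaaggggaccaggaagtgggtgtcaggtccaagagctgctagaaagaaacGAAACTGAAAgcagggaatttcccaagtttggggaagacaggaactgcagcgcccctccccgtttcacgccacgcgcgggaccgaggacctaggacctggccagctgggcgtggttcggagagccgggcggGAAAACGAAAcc
IFIT1 (chr10:89392373-89392622, + strand): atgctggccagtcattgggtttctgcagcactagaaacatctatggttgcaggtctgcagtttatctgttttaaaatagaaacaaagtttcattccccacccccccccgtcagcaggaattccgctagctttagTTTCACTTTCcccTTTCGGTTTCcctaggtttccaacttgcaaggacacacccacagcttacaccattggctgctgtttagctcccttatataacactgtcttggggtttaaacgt
Each holds 2 matches. The element was found in 25 of 38 interferon-stimulated genes with a window (65.8%) and in 3.28% of all tested genes with one. Among the genes higher in HCT116-EHF as a whole it was found in 2.71% and among those higher in HCT116-CDX1 in 3.08%.

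Upstream interferon genes were divided, near the shares over all genes. Of 32 interferon sensing and signalling genes, 10 (31.25%) were higher in HCT116-EHF and 6 (18.75%) in HCT116-CDX1 (median log2 fold change 0.09). IKBKE, a kinase of IRF3, had 5.53, 5.69 and 7.08 CPM in the HCT116-EHF libraries against 0.729, 0.711 and 0.654 CPM in those of HCT116-CDX1 (log2 fold change 3.14 ± 0.18 (SE), adjusted p = 1.62e-08), and NLRC5, the activator of MHC class I (1.91 ± 0.12), and the RNA sensor TLR3 (1.88 ± 0.26) were also higher in HCT116-EHF. Among MHC class I genes, 6 of 21 were higher in HCT116-EHF and 4 in HCT116-CDX1 (median 0.14). The immunoproteasome subunit PSMB9 had 4.61, 6.11 and 6.28 CPM in the HCT116-EHF libraries against 0.81, 0.948 and 0.63 CPM in those of HCT116-CDX1 (log2 fold change 2.85 ± 0.20 (SE), adjusted p = 8.40e-08), and HLA-G, which may share reads with other HLA genes, was higher in HCT116-CDX1 (-1.36 ± 0.18).

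**Figure D2:**
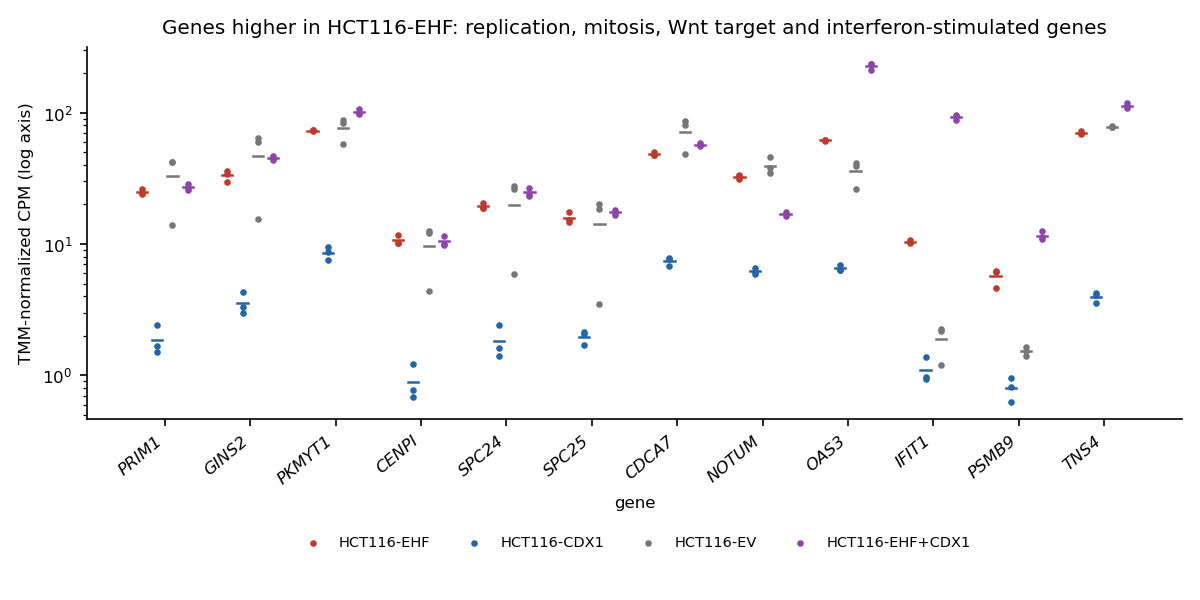
TMM-normalized CPM on a log axis (y) of 12 genes higher in HCT116-EHF than in HCT116-CDX1 (x), with 1 point per library, a bar at the mean of the 3 libraries and colours for the 4 lines. For IFIT1 the HCT116-EHF+CDX1 libraries lie above all others.

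NF-kB and acute-phase genes split between the lines, with 19 of 35 higher in HCT116-CDX1 and 8 in HCT116-EHF (median -1.07). The largest differences ran in opposite directions. SAA1, the acute-phase apolipoprotein serum amyloid A1, had 65.4, 68.7 and 70.3 CPM in the HCT116-EHF libraries against 0.0607, 0.0948 and 0.0969 CPM in those of HCT116-CDX1 (log2 fold change 9.64 ± 0.14 (SE), adjusted p = 1.21e-12). SAA2, a near-identical neighbour of SAA1 with which it may share reads, had 6.44, 5.79 and 6.7 CPM in the HCT116-EHF libraries against 0.0607, 0.166 and 0.0242 CPM in those of HCT116-CDX1. SAA1 averaged 0.0179 CPM in HCT116-EV against 34.4 CPM in HCT116-EHF+CDX1, so that its RNA was found in both lines with the EHF plasmid and was near 0 in the others. CXCL3, a neutrophil chemokine, had 1.32, 1.31 and 1.18 CPM in the HCT116-EHF libraries against 19.3, 13.8 and 16.4 CPM in those of HCT116-CDX1 (log2 fold change -3.72 ± 0.16 (SE), adjusted p = 1.44e-09). Along with it, the feedback inhibitor TNFAIP3 (-3.30 ± 0.19) and the adhesion molecule ICAM1 (-3.29 ± 0.11) were higher in HCT116-CDX1, and the matrix protease MMP7 (3.64 ± 0.35) and the protease inhibitor SERPINA3 (2.89 ± 0.52) were higher in HCT116-EHF.

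Intestinal differentiation genes were mostly low in both lines. VIL1, which encodes villin of the brush border, had 0.355, 0.101 and 0.252 CPM in the HCT116-EHF libraries against 0, 0.118 and 0.121 CPM in those of HCT116-CDX1, below the filter, with 48.5 CPM on average in HCT116-EHF+CDX1. The adhesion genes GPA33 and CDH17 were also below the filter, at 0.166 and 0.273 CPM in HCT116-EHF against 0.0665 and 0.22 CPM in HCT116-CDX1, as was the homeobox factor ISX (0.0779 and 0.0555 CPM). KRT20, a keratin of mature colonocytes, passed the filter and was higher in HCT116-CDX1, with 0.355, 0.241 and 0.168 CPM in the HCT116-EHF libraries against 1.25, 1.49 and 1.31 CPM in those of HCT116-CDX1 (log2 fold change -2.58 ± 0.31 (SE), adjusted p = 1.03e-05). HCT116-EV averaged 1.4 CPM and HCT116-EHF+CDX1 10.8 CPM.

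Of 11 colonocyte differentiation markers tested out of 30 listed, 4 were higher in HCT116-CDX1 and 2 in HCT116-EHF (median 0.37), and 4 and 5 with no scaling factors. ANPEP, a brush border peptidase, had 0.406, 0.382 and 0.456 CPM in the HCT116-EHF libraries against 3.28, 3.32 and 2.37 CPM in those of HCT116-CDX1 (log2 fold change -2.82 ± 0.24 (SE), adjusted p = 4.76e-07). LGALS4, an intestinal galectin, was 5.89-fold higher in HCT116-CDX1 and CA12 and SLC26A2, a carbonic anhydrase and a sulphate carrier, were higher in HCT116-EHF (2.21 ± 0.12 and 2.04 ± 0.11). Of 19 brush border genes, 6 were higher in HCT116-CDX1 and 3 in HCT116-EHF (median -0.04), which turned to 2 and 5 with no scaling factors. EPS8L3 (-2.39 ± 0.32) and the scaffold PDZK1 (-1.70 ± 0.22) were higher in HCT116-CDX1 and the motor MYO1A (1.88 ± 0.32) in HCT116-EHF, all at under 3 CPM in both lines. Goblet and mucin genes had 7 of 17 in each direction (median 0.60), but 6 higher in HCT116-CDX1 and 2 in HCT116-EHF with the filter at 2 CPM (median -1.21). The membrane mucin MUC13 had 0.254, 0.181 and 0.324 CPM in the HCT116-EHF libraries against 5.02, 6.33 and 6.62 CPM in those of HCT116-CDX1 (log2 fold change -4.48 ± 0.24 (SE), adjusted p = 8.60e-09), and the gastric-type mucin MUC5AC was 21.5-fold higher in HCT116-CDX1, while CREB3L1 was higher in HCT116-EHF (2.80 ± 0.42). MUC13 averaged 41.2 CPM in HCT116-EHF+CDX1.

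Of 12 enteroendocrine and tuft genes, 6 were higher in HCT116-EHF and 1 in HCT116-CDX1 (median 0.93), at low levels throughout. The hormone gene CCK had 1.17, 0.985 and 1.41 CPM in the HCT116-EHF libraries against 0.142, 0.0711 and 0.0485 CPM in those of HCT116-CDX1 (log2 fold change 3.70 ± 0.40 (SE), adjusted p = 3.18e-06), and the vesicle protein SYP was also higher in HCT116-EHF (1.83 ± 0.28). PYY, another gut hormone, was higher in HCT116-CDX1 (-1.82 ± 0.27).

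Among intestinal transcription factors, 11 of 23 were higher in HCT116-CDX1, CDX1 itself included, and 7 in HCT116-EHF (median -0.35), and 7 and 7 with no scaling factors. PRDM1, the repressor BLIMP1, had 4.16, 4.04 and 3.38 CPM in the HCT116-EHF libraries against 68.6, 37.7 and 50.6 CPM in those of HCT116-CDX1 (log2 fold change -3.79 ± 0.20 (SE), adjusted p = 8.17e-09), and the forkhead factor FOXA1 (-2.56 ± 0.11) and the zinc finger factor KLF4 (-2.28 ± 0.08) were also higher in HCT116-CDX1. FOXA2 (chr20:22580998-22585490), a relative of FOXA1, had 0.761, 0.664 and 0.697 CPM in HCT116-EHF and no read in HCT116-CDX1, and was at least 10.4-fold higher in HCT116-EHF when 3 counts per library are allowed for. It had no read in HCT116-EV and averaged 8.22 CPM in HCT116-EHF+CDX1. MYB, a progenitor factor, was higher in HCT116-EHF (2.73 ± 0.29). GATA6 was higher in HCT116-CDX1 (-0.96 ± 0.09). CDX2, the relative of CDX1, was not called, with 27.1, 31.4 and 30.7 CPM in the HCT116-EHF libraries against 34.4, 39.5 and 37.9 CPM in those of HCT116-CDX1 (log2 fold change -0.32 ± 0.08 (SE), adjusted p = 0.00331), and with no scaling factors its sign turned. SOX9, a crypt factor, was not called either (log2 fold change 0.18 ± 0.07 (SE), adjusted p = 0.038).

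Among ETS family genes the larger number was higher in HCT116-CDX1. Of 16 tested, 9 were higher there and 3 in HCT116-EHF, with EHF as 1 of the 3 (median -0.87), and with no scaling factors 6 and 4. ETS1 had 15, 17.7 and 18.1 CPM in the HCT116-EHF libraries against 157, 133 and 129.8 CPM in those of HCT116-CDX1 (log2 fold change -3.03 ± 0.09 (SE), adjusted p = 1.85e-10), and ELF3, another ETS factor of the gut epithelium, had 87, 79.9 and 70.6 CPM in the HCT116-EHF libraries against 173, 238 and 172 CPM in those of HCT116-CDX1 (log2 fold change -1.30 ± 0.12 (SE), adjusted p = 8.31e-07). ETV6, an ETS repressor, was higher in HCT116-EHF with 28.7, 33.6 and 31.5 CPM in the HCT116-EHF libraries against 6.21, 8.67 and 7.34 CPM in those of HCT116-CDX1 (log2 fold change 2.09 ± 0.12 (SE), adjusted p = 1.34e-08). No overlap between lines was seen for these genes. ELF3 averaged 86.3 CPM in HCT116-EV against 83.6 CPM in HCT116-EHF+CDX1.

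The elements of the introduced factors were looked for in the same windows. The ETS element CCGGAAGT was found in 4.16% of genes higher in HCT116-EHF, 8.18% of those higher in HCT116-CDX1 and 7.62% of all tested genes with a window. The CDX element, CAATAAA or CCATAAA, was found in 4.3%, 5.72% and 5.01%, and the AP-1 element TGANTCA, bound by FOS and JUN proteins, in 5.28%, 7.79% and 6.29%. These are shares of letters in 250 bases, with no test, and say nothing of binding at promoters or elsewhere.

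Epithelial junction and keratin genes had 10 of 46 (21.7%) higher in HCT116-CDX1 and 8 (17.4%) in HCT116-EHF, below the shares over all genes (median -0.18). Both the sign and the split turned under other scalings, to 7 and 14 with no scaling factors and 6 and 12 with voom and quantile normalization. The simple-epithelium keratin KRT7 had 10.6, 11.1 and 11.7 CPM in the HCT116-EHF libraries against 114, 174 and 177 CPM in those of HCT116-CDX1 (log2 fold change -3.78 ± 0.16 (SE), adjusted p = 1.05e-09). It was 74, 76.4 and 368 CPM in HCT116-EV and 133 CPM on average in HCT116-EHF+CDX1, so for this gene HCT116-EHF was the line that stood apart. KRT80 had 17.9, 19.9 and 20.5 CPM in the HCT116-EHF libraries against 249.8, 274 and 272 CPM in those of HCT116-CDX1 (log2 fold change -3.76 ± 0.07 (SE), adjusted p = 9.42e-12), and KRT6A was higher in HCT116-EHF at low levels (3.18 ± 0.33).

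Mesenchymal and matrix genes were called in either direction, 15 of 46 higher in HCT116-EHF and 13 in HCT116-CDX1 (median -0.15, with the sign turning under other scalings). SNAI2, which encodes the repressor SLUG, had 0.507, 0.442 and 0.589 CPM in the HCT116-EHF libraries against 30.4, 19.3 and 20.8 CPM in those of HCT116-CDX1 (log2 fold change -5.48 ± 0.23 (SE), adjusted p = 1.14e-09). The YAP- and serum-responsive genes CCN1 (29.6, 31.4 and 34.1 CPM in the HCT116-EHF libraries against 610.4, 459.5 and 500.1 CPM in those of HCT116-CDX1) and CCN2 (8.97, 8.51 and 10.5 CPM in the HCT116-EHF libraries against 145, 83.1 and 102 CPM in those of HCT116-CDX1) were 16.4-fold and 11.7-fold higher in HCT116-CDX1. Those higher in HCT116-EHF included the collagens COL5A1 (3.35 ± 0.31) and COL4A1 (2.99 ± 0.54) and fibronectin, FN1 (2.21 ± 0.15). Of 15 integrin subunits, 7 were higher in HCT116-EHF and 2 in HCT116-CDX1 (median 0.61), led by ITGB8 (2.58 ± 0.19), ITGA1 (2.57 ± 0.26) and ITGB5 (1.76 ± 0.07).

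Genes of signalling pathways were divided. Of 27 growth factor and ERBB receptor genes, 12 were higher in HCT116-EHF and 5 in HCT116-CDX1 (median 0.57). The receptor FGFR1 had 109, 101 and 101 CPM in the HCT116-EHF libraries against 727, 554 and 516 CPM in those of HCT116-CDX1 (log2 fold change -2.54 ± 0.11 (SE), adjusted p = 1.73e-09), with the ligand FGF2 also higher in HCT116-CDX1 (-2.19 ± 0.09) and FGF9 higher in HCT116-EHF (2.51 ± 0.19). Of 36 BMP and TGF-beta genes, 8 were higher in HCT116-EHF and 9 in HCT116-CDX1 (median -0.25), and 9 and 5 with no scaling factors. BMP2 (chr20:6767686-6780246), a ligand, had no read in HCT116-EHF and 6.98, 3.77 and 5.52 CPM in HCT116-CDX1, at least 65.5-fold higher when 3 counts per library are allowed for. BMP6 was higher in HCT116-EHF with 4.06, 4.85 and 4.17 CPM in the HCT116-EHF libraries against 0.162, 0.237 and 0.0969 CPM in those of HCT116-CDX1 (log2 fold change 4.70 ± 0.27 (SE), adjusted p = 1.49e-08), and SKIL, a SMAD corepressor, in HCT116-CDX1 (-2.24 ± 0.13).

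Of 29 Notch genes, 9 (31.0%) were higher in HCT116-EHF and 8 (27.6%) in HCT116-CDX1, near the shares over all genes (median -0.22). LFNG, the glycosyltransferase lunatic fringe, had 11.6, 10.7 and 12.1 CPM in the HCT116-EHF libraries against 0.749, 0.687 and 0.63 CPM in those of HCT116-CDX1 (log2 fold change 4.05 ± 0.15 (SE), adjusted p = 5.07e-10), and HES2 (3.44 ± 0.12) and the coactivator MAML2 (3.21 ± 0.17) were also higher in HCT116-EHF. Eph receptors and ephrins had 7 of 17 higher in HCT116-EHF and 4 in HCT116-CDX1 (median 0.46), led by EPHA8 (2.43 ± 0.20), EPHA10 (2.35 ± 0.13) and EPHB6 (2.07 ± 0.11). HOX genes are the anterior-posterior identity genes to which CDX factors are upstream in the embryo. Of 30 tested, 7 (23.3%) were higher in HCT116-EHF and 5 (16.7%) in HCT116-CDX1, below the shares over all genes (median -0.01). This turned to 4 and 8 with voom and quantile normalization. HOXC13 (2.29 ± 0.29) and HOXB13 (2.01 ± 0.11), of the posterior end, were higher in HCT116-EHF. Of 7 PBX, MEIS and PKNOX cofactors, PKNOX1 (-1.72 ± 0.09) and PBX4 (-1.27 ± 0.16) were higher in HCT116-CDX1 (median 0.03). Of 9 SOX genes, SOX15 (-2.16 ± 0.17) and SOX30 (-2.14 ± 0.31) were higher in HCT116-CDX1 and 2 in HCT116-EHF, with SOX13 as the larger (1.22 ± 0.10; median 0.12).

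Metabolic lists had small positive medians. Of 38 glycolysis and hypoxia genes, 19 were higher in HCT116-EHF and 8 in HCT116-CDX1 (median 0.72). The glycolytic enzyme ENO2 had 93.3, 94.3 and 82 CPM in the HCT116-EHF libraries against 12.4, 18.1 and 11.6 CPM in those of HCT116-CDX1 (log2 fold change 2.68 ± 0.14 (SE), adjusted p = 6.42e-09), and the collagen hydroxylase P4HA2 (-2.96 ± 0.09) and the repressor BHLHE40 (-2.09 ± 0.06) were higher in HCT116-CDX1. Of 44 fatty acid metabolism genes, 17 were higher in HCT116-EHF and 3 in HCT116-CDX1 (median 0.33), with ACACB, an acetyl-CoA carboxylase, at 26.5, 27.9 and 28.8 CPM in the HCT116-EHF libraries against 1.58, 1.35 and 1.89 CPM in those of HCT116-CDX1 (log2 fold change 4.11 ± 0.12 (SE), adjusted p = 1.51e-10), followed by the oxidation enzymes ACOX2 (3.15 ± 0.18) and ACADSB (2.67 ± 0.12). Of 31 cholesterol synthesis and uptake genes, 8 (25.8%) were higher in HCT116-EHF, near the share over all genes (25.4%). In HCT116-CDX1 4 (12.9%) were higher, below that share (22.5%), and the median was 0.16. LSS (1.96 ± 0.08) was higher in HCT116-EHF and the sterol carrier NPC1L1 (-2.87 ± 0.14) in HCT116-CDX1. Of 78 oxidative phosphorylation genes, 12 (15.4%) were higher in HCT116-EHF and 1 (1.28%) in HCT116-CDX1 (median 0.20). Both shares were below those over all genes. ATP5F1D (1.33 ± 0.12), NDUFV1 (1.21 ± 0.08) and ATP5PD (1.14 ± 0.08) led the 12. Those 12 became 25 with no scaling factors and 3 in the fit of all 12 libraries.

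Of 41 xenobiotic metabolism and efflux genes, 12 (29.3%) were higher in HCT116-EHF and 8 (19.5%) in HCT116-CDX1, near the shares over all genes (median 0.32). The drug efflux pump ABCB1 had 7.76, 7.12 and 7.06 CPM in the HCT116-EHF libraries against 63.3, 38.9 and 57.4 CPM in those of HCT116-CDX1 (log2 fold change -2.88 ± 0.16 (SE), adjusted p = 1.09e-08), the aldo-keto reductase AKR1C3 was also higher in HCT116-CDX1 (-3.38 ± 0.30) and the glutathione transferase GSTM4 was higher in HCT116-EHF (2.91 ± 0.15). Of 30 p53 target genes, 6 were higher in HCT116-EHF and 9 in HCT116-CDX1 (median 0.03), a balance that turned to 9 and 4 with no scaling factors and to 7 and 5 with voom and quantile normalization. Among them were the growth arrest gene GADD45A (-2.65 ± 0.09) and SPATA18 (-3.33 ± 0.44), higher in HCT116-CDX1. Of 11 S100 calcium-binding genes, 3 were higher in HCT116-EHF and 5 in HCT116-CDX1 (median -0.51), S100A5 (2.92 ± 0.27) and S100A4 (2.41 ± 0.19) in the former and S100A14 (-1.54 ± 0.05) in the latter.

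Where the mean log2 CPM reached 4, the largest differences toward HCT116-EHF after EHF were in CYP24A1, the vitamin D hydroxylase (chr20:54143538-54173986), with 298, 276 and 281 CPM in the HCT116-EHF libraries against 9.39, 14 and 9.84 CPM in those of HCT116-CDX1 (log2 fold change 4.69 ± 0.13 (SE), adjusted p = 8.26e-11), and TNS4, a focal adhesion tensin, with 69.7, 68.7 and 72 CPM in the HCT116-EHF libraries against 4.21, 4.08 and 3.56 CPM in those of HCT116-CDX1 (log2 fold change 4.15 ± 0.08 (SE), adjusted p = 1.34e-11). CYP24A1 averaged 18.2 CPM in HCT116-EV against 220.3 CPM in HCT116-EHF+CDX1. TNS4 was at 78, 78.6 and 77.4 CPM in HCT116-EV, so it was HCT116-CDX1 that stood apart for this gene. ADAM19, a membrane metalloprotease, had 182, 180.5 and 181 CPM in the HCT116-EHF libraries against 16.4, 17 and 14.7 CPM in those of HCT116-CDX1 (log2 fold change 3.50 ± 0.07 (SE), adjusted p = 1.02e-11) and averaged 8.16 CPM in HCT116-EV against 93.8 CPM in HCT116-EHF+CDX1. The centrosomal gene LRRC45 (3.41 ± 0.10), the nucleotide synthesis enzyme PRPS1 (3.27 ± 0.11), the collagen COL9A3 (3.16 ± 0.09) and the membrane protein MALL (3.14 ± 0.13) followed. Among genes of at least a 4-fold difference, the highest in CPM, which also rises with transcript length, were the protocadherin FAT1, with 1842, 1803 and 2003 CPM in the HCT116-EHF libraries against 467, 408 and 429.6 CPM in those of HCT116-CDX1 (log2 fold change 2.11 ± 0.07 (SE), adjusted p = 2.04e-10), and CYB5B, a mitochondrial cytochrome b5 (2.66 ± 0.07). Toward HCT116-CDX1 the largest outside the stress lists were FLNC, an actin-binding filamin, with 233, 235 and 248 CPM in the HCT116-EHF libraries against 5773, 4082 and 5627 CPM in those of HCT116-CDX1 (log2 fold change -4.43 ± 0.12 (SE), adjusted p = 1.08e-10), and the uncharacterized LOC101928841 (-5.16 ± 0.17).

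Some genes were present in 1 line and near absent from the other. At most 3 counts per library in HCT116-CDX1 were found for 51 of the 3832 genes higher in HCT116-EHF. At most 3 in HCT116-EHF were found for 13 of the 3384 genes higher in HCT116-CDX1. These are raw counts, and 3 counts were 0.036 to 0.152 CPM in HCT116-EHF libraries and 0.0607 to 0.0727 CPM in those of HCT116-CDX1. The deepest library was of HCT116-EHF, so 51 and 13 were not counted at equal depth. KRTAP9-4, a keratin-associated protein gene with near-identical neighbours, had 15.6, 13.9 and 13.6 CPM in HCT116-EHF and no read in HCT116-CDX1 (at least 210-fold higher). LONRF2 had 630 reads in HCT116-EHF and 2 in HCT116-CDX1, a ratio at equal depth of 274 (95% counting interval 75.6 to 2268). The carboxylesterase CES1, SDK2 and GASK1A had ratios of 228, 156 and 133. In the other direction IL1RL1, the IL-33 receptor, had 387 reads in HCT116-CDX1 and 1 in HCT116-EHF, a ratio of 445 (79.4 to 17612), and MAGEB1 and TDRG1 had no read in HCT116-EHF and were at least 21.8-fold and 18.6-fold higher in HCT116-CDX1. The read-through transcript ARL2-SNX15 (ratio 238) shares exons with its parent genes and is uncertain.

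Markers of other cell types were mostly below the filter on low counts. Of 14 fibroblast and endothelial markers 3 were tested and 1, the collagen COL1A1, was higher in HCT116-CDX1 (-2.13 ± 0.10), with summed levels of 40.6 to 45.9 CPM in HCT116-EHF against 159 to 205 CPM in HCT116-CDX1. Of 15 blood cell markers 6 were tested, with 1 higher in HCT116-EHF and 3 in HCT116-CDX1, namely the lysosomal CD68 (-2.58 ± 0.08), CD79A (-2.41 ± 0.31) and CD14 (-1.89 ± 0.26), and summed levels of 39.3 to 40.4 and 87.6 to 95.8 CPM. The leukocyte antigen PTPRC and the T cell receptor chains were below the filter. Of 12 neural and muscle markers 7 were tested, with 2 called each way, among them nestin, NES (2.19 ± 0.11), and RBFOX3 (-2.09 ± 0.16). The part of these markers in the other results was not tested.

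The lines that entered no test lay mostly on the side of HCT116-EHF. By mean log2 CPM, HCT116-EV was nearer to HCT116-EHF than to HCT116-CDX1 for 75.6% of all genes tested, for 84.0% of the genes higher in HCT116-EHF and for 90.2% of those higher in HCT116-CDX1. HCT116-EHF+CDX1, although made from HCT116-CDX1 cells, was nearer to HCT116-EHF for 82.8% of all genes tested, 94.2% of those higher in HCT116-EHF and 94.5% of those higher in HCT116-CDX1. All 28 heat shock genes were nearer to HCT116-EHF in both. For 52 of 54 DNA replication genes HCT116-EV was nearer to HCT116-EHF, and for 53 HCT116-EHF+CDX1 was. These are descriptions with no test.

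**Figure D3:**
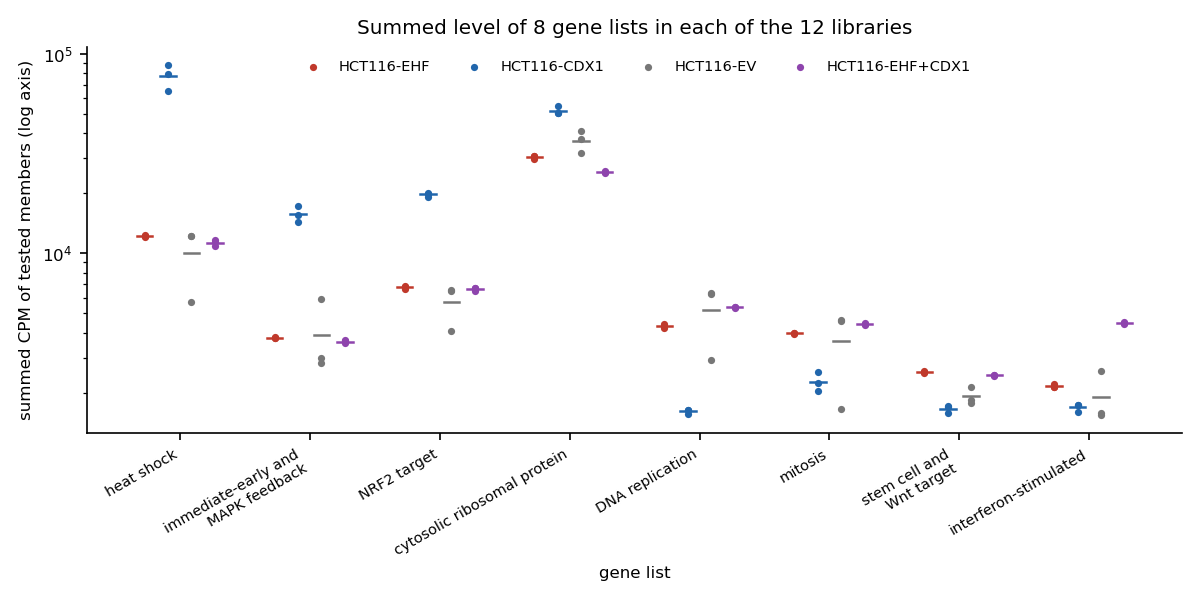
Summed CPM of the tested members of 8 gene lists (x) on a log axis (y), with 1 point per library, a bar at the mean of the 3 libraries and colours for the 4 lines. For heat shock genes HCT116-CDX1 lies at 64868 to 88123 CPM and all other libraries at or below 12315 CPM, for DNA replication genes HCT116-CDX1 is the lowest line, and 1 HCT116-EV library stands apart from the other 2 in several lists.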

How the data were processed

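RNA-seq libraries (NEBNext Ultra II Directional, paired-end; poly(A) RNA per the labels) of HCT116 lines were sequenced and, per the labels and the study's methods, aligned by the authors to GRCh38/hg38 with Subread 2.0.0. The authors deposited raw counts of uniquely mapped reads on RefSeq exons (featureCounts 2.0.0) for 28395 genes, 550 without a symbol, and log2 RPKM values made from them with limma voom and quantile normalization. The strand setting of the counting is not given in the sources used here, so overlapping and near-identical genes are uncertain. No log2 RPKM value is used except in an alternative.

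The model was fitted to the counts of the 3 HCT116-EHF and 3 HCT116-CDX1 libraries with edgeR 4.0.16 under R 4.3.3. A gene entered it where 3 or more of the 6 libraries reached a CPM of 0.5 (15069 genes; 0.0768% of counts left out). A quasi-likelihood model was fitted with TMM factors (1.12 to 1.13 in HCT116-EHF, 0.865 to 0.900 in HCT116-CDX1), and called genes passed glmTreat with a 1.5-fold margin (Benjamini-Hochberg, 0.05). SE is the absolute log2 fold change over the square root of F. The common biological coefficient of variation was 0.0796. In simulated counts for 15069 genes with 200 changed 4-fold, edgeR recovered 100% with 0 false calls. The changed genes there were few, well counted and of random direction. The simulation therefore does not bear on the scaling, on low counts or on data with 47.9% of genes called. Libraries of the other lines were put on the same TMM scale and entered no test. Positions come from RefSeq (GRCh38.p14) for 14935 genes, and promoters from a RefSeq table with a window for 11574 tested genes, searched in Python 3.11.15. Intervals and floors (3 counts) cover counting error only.

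The lines compared and the gene lists were chosen with earlier results of these data known, and lists and motifs said to be drawn up after the values were seen add no support. Named genes are EHF, CDX1 and the differentiation and factor genes the study follows; in each direction the 10 largest called differences with 4 or more in mean log2 CPM and 10 or more counts in every library, the 5 highest genes with at most 3 counts per library in the other line, and the 3 most abundant of at least 4-fold; and the 3 largest called differences of each list. The 10 largest differences were also required to show no overlap between the lines. Other list members were named after their values were seen. A few genes that this rule names are not reported here. Alternatives were RLE or no scaling factors, other filters, DESeq2 1.42.0, limma 3.58.1 voom, the deposited log2 RPKM, all 12 libraries, a replicate block, each library left out and, added after seeing the data, thinned counts and TMM factors without mitochondrial genes, heat shock genes and EHF.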

Additional observations from a re-analysis of the deposited data

How the results depend on the processing

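Over 18 alternatives, 152 of 160 named genes kept their call and direction wherever they had a result. Some named genes at low levels, among them KRT20, FOXA2 and MUC5AC, had a result in only 17. No gene was called in opposite directions. The genes higher in HCT116-EHF and in HCT116-CDX1 numbered 3832 and 3384. They were 6278 and 5908 in the test against no change and 5441 and 2139 with no scaling factors. Other settings gave 3711 and 3509 (RLE factors), 4306 and 3728 (no filter), 3232 and 2972 (filter at 2 CPM), 3353 and 3028 (all 12 libraries), 3153 and 3012 (DESeq2), 3209 and 3041 (voom), 3087 and 2998 (deposited log2 RPKM), 3693 and 3280 (thinned counts) and 3820 and 3393 (TMM factors without mitochondrial genes, heat shock genes and EHF). Leaving out 1 library gave 3577 to 3801 and 3197 to 3526.

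The log2 fold change of CDX2 turned to 0.024 with no scaling factors, by construction, since that setting moves the median of all genes by 0.34. The other 7 that changed were SOX9, called in the test against no change, and GATA6, MTF1, RPL13, MALAT1, PSMC3 and PSMC4, which lost their call in 1 to 5 settings; the cause was not tested. With no scaling factors or quantile normalization, medians turned in sign for the brush border, junction and keratin, mesenchymal, and BMP and TGF-beta lists. The Notch, HOX, PBX and CLK medians did so too. Those of the p53 and SOX lists turned under other settings. With the filter at 2 CPM the goblet (-1.21), fibroblast and endothelial (-0.84) and neural and muscle (-0.69) medians turned. The fit of all 12 libraries gave fewer genes higher in HCT116-EHF for integrin (4), MHC class I (3), NF-kB (4), glycolysis (12) and mitochondrially encoded (3) genes, and the last rose to 12 with no scaling factors.

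Replicate numbers are shared by the lines. The deviation of each library in log2 CPM from the mean of its line was correlated between the lines over 8155 genes. Libraries with the same number gave only 0.0916, 0.132 and 0.0586 (other pairs -0.112 to -0.00203), so the numbers were not taken to pair them. By this measure every library correlated best with its own number, which is a hint from the data. The deviations of a line sum to 0, so these values are not independent of each other. With a replicate block 3849 and 3339 genes were called, and the block changed no call of a named gene. Counts at low levels limit genes near the filter, where 1 read in the smallest library is a large step.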
